A study of Mus musculus with 9 samples.

Results

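The transcripts described here are those of the heterotrimeric G proteins and the Rgs genes in the mouse olfactory bulb. A gene entered the set when its symbol had the name pattern of an alpha (Gna), beta (Gnb1 to Gnb5) or gamma (Gng) subunit or of an Rgs gene, and its mean over the 9 libraries was at least 1 RPKM. RPKM is a read count scaled by transcript length and by library size, and levels of different genes are set side by side on that scale. The transcript lengths used are not given, so the order of genes and their shares of a sum depend on unknown lengths. Of 56 genes in the table with such a name, 44 reached that level, among 12780 of all 27497 listed genes that did. The 44 were 11 alpha subunits, 4 beta subunits, 9 gamma subunits, 16 Rgs genes and 4 genes whose names match but which are neither subunits nor Rgs proteins. Those 4 are Gnb2l1 (the ribosome-bound scaffold Rack1), Gnb1l, Rgs7bp (a membrane anchor of certain Rgs proteins) and an entry headed Gng3lg that is Bscl2 (seipin, a lipid droplet protein).

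Polyadenylated RNA was sequenced from the olfactory bulbs of 9 adult C57/BL6 mice, 6 to 8 weeks of age or older, with 3 separate mice in each group. The first exposed group, called 30 min, was given a mixture of odorants for 30 min and killed at once. The second, called 120 min, had the same 30 min of odorants and then 90 min of clean air. The comparison group, called clean air, was kept in air passed through an activated carbon filter and received no odorants. All 3 groups shared strain, tissue and age range, and the labels give no sex and no processing batch. The title of the study asks which transcripts respond to natural neuronal activity in the living animal, and for the G proteins and Rgs genes the comparisons ask whether their transcripts were among them.

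A heterotrimeric G protein couples a receptor in the cell membrane to enzymes and ion channels inside the cell: the alpha subunit binds GTP, and the beta and gamma subunits travel as a pair. Alpha subunits fall into the Gs/olf class, which stimulates adenylyl cyclase, the Gi/o class, which inhibits it, the Gq/11 class, which activates phospholipase C beta, and the G12/13 class. Rgs proteins end the signal by speeding GTP hydrolysis on the alpha subunit. In the olfactory system Gnal encodes Golf, the alpha subunit through which odorant receptors act in the sensory neurons of the nose, and Gng13 encodes a gamma subunit that partners with it there. The olfactory bulb receives the axons of those neurons, whose cell bodies lie outside it. Rgs2, which acts mainly on Gq, is known in other brain regions as a gene whose transcript is induced quickly by neuronal activity.

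The promoters shown here are those of the transcripts on which the comparisons turn: Rgs2, the Rgs gene known elsewhere as activity-induced, Rgs7bp, which had the smallest p-value of the set in both comparisons with clean air, and Gng13, the Golf partner with the widest spread among abundant members. The promoter of Fos, an immediate-early gene, is given beside them because Fos was higher in every odor-exposed mouse than in every clean air mouse. Each sequence covers 250 bases before and 50 bases after the annotated start, 5′ to 3′ on the strand of the gene, from RefSeq annotation of build GRCm38.p6. The deposited values were made on another build, mm9, so the positions belong to the reference sequence and not to the reads. Capitals mark matches on either strand to TGACG (the core of the cAMP response element, which is contained in the full element TGACGTCA), GGGCGG (the GC box) and TATAAA, and they run together where matches overlap. The Rgs2 promoter is at chr1:144004100-144004399 on the minus strand, that of Rgs7bp at chr13:105054881-105055180 on the minus strand, those of Gng13 at chr17:25716922-25717221 and chr17:25717278-25717577 on the plus strand, and that of Fos at chr12:85473640-85473939 on the plus strand.
Rgs2: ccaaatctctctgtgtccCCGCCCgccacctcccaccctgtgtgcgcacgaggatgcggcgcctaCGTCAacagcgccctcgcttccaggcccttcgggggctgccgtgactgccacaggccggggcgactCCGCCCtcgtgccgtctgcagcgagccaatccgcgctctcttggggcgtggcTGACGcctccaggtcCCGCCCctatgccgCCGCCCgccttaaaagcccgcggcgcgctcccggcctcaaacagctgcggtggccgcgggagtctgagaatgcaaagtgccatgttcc
Rgs7bp: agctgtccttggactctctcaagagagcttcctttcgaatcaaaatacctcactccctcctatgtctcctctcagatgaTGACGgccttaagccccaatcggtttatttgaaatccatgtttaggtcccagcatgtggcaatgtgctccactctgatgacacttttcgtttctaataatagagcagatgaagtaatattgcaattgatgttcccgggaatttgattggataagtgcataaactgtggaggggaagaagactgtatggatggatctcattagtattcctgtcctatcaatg
Gng13 upstream start: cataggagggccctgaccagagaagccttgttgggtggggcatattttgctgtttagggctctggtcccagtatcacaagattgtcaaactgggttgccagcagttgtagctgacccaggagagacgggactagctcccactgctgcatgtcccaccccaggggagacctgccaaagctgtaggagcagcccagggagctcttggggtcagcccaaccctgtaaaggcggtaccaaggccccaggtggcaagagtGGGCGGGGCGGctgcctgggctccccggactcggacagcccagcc
Gng13 downstream start: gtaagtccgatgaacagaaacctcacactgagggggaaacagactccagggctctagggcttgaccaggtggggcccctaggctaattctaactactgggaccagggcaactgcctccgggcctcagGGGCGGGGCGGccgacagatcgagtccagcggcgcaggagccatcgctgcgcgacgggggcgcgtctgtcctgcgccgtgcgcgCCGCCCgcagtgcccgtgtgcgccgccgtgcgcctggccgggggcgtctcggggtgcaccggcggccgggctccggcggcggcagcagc
Fos: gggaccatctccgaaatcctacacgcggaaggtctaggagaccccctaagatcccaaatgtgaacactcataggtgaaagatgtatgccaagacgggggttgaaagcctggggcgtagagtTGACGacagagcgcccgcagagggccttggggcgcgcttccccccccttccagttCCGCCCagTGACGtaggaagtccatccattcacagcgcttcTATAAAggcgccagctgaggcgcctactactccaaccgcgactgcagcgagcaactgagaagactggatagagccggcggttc

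Counting from the start of the gene, Rgs2 had TGACG matches beginning at -185 and -67 and GGGCGG matches at -232, -119, -52 and -38. Fos likewise had 2 TGACG matches, at -129 and -66, and in addition a GGGCGG match at -74 and a TATAAA match at -33. Rgs7bp had a single TGACG match at -171, and neither Gng13 start had one, although together they held 5 GGGCGG matches. Promoters could be looked up by symbol for 36 of the 44 members, which gave 51 windows. TGACG occurred in 14 of the 51 windows (27.5%) and in 20.8% of all 32851 mouse windows of the same length. GGGCGG occurred in 28 of the 51 (54.9%) and in 35.7% of all windows, and TATAAA in 8 (15.7%) and in 13.6% of all. The full element TGACGTCA was in none of the 51 windows and in 1.79% of all, and the CArG box was in none and in 1.63% of all. The members' windows were richer in G and C, with a median of 62.3% against 52.7% over all windows. These are letter matches and were not read as binding sites.

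The libraries held 7.12 to 29.8 M counts (megacounts), as recovered from the spacing of the deposited values, and 12511 to 12815 genes at or above 1 RPKM. The tissue label was met by markers of bulb neurons, since 5 interneuron markers summed to 820.5 to 1314 RPKM and 5 mitral and tufted cell markers to 960.3 to 1390.4 RPKM over the 9 libraries. In contrast, of 5 symbols listed for striatal or cortical neurons only 2 were found, and these summed to 0.56 to 1.92 RPKM. Clean air mouse 3 stood apart in these sums, lowest for the interneuron markers (820.5 RPKM, against 1148 to 1314 RPKM in the other 8) and highest for the sum of the mitral and tufted markers. All 5 interneuron markers were at their lowest there. The mitral and tufted markers went both ways: Slc17a7 (521 RPKM) and Doc2g (726 RPKM) were at their highest of the 9 and Pcdh21 (86.75 RPKM) at its lowest. The differences of Gnal, Gnb1, Gng13 and Rgs2 from clean air are given with and without this mouse, and the part of its makeup in them was not tested.

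The alpha and beta subunits were the abundant families of the set by median level. The median was 45.3 RPKM for the alpha and 168 RPKM for the beta subunits. It was 13.1 RPKM for the gamma subunits and 10.15 RPKM for the Rgs genes. The whole set had a median of 16.75 RPKM, against 9.93 RPKM over all 12780 genes at or above 1 RPKM. Of the 44 members, 9 (20.5%) were among the 1000 most abundant genes, which are 7.83% of those 12780. A group of 8 genes, namely Gnai2, Gnao1, Gnb1, Gnb2, Gng3, Gng4, Gng13 and Gnb2l1, averaged over 100 RPKM, and 13 averaged under 10 RPKM. The members just above the 1 RPKM limit were Rgs14 at 2.96 RPKM and Gng11 at 3.08 RPKM, and the genes just under it were Gna15 at 0.870 RPKM and Gng8 at 0.832 RPKM. Of the 12 genes under the limit, Rgs1, Rgs13 and Gnat3 were listed at 0 in all 9 libraries, where 3 counts on a transcript of 1 kb would have given 0.101 to 0.421 RPKM. The others included the rod and cone transducins Gnat1 (0.290 RPKM) and Gnat2 (0.257 RPKM) and the cone beta subunit Gnb3 (0.124 RPKM).

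**Figure D1:**
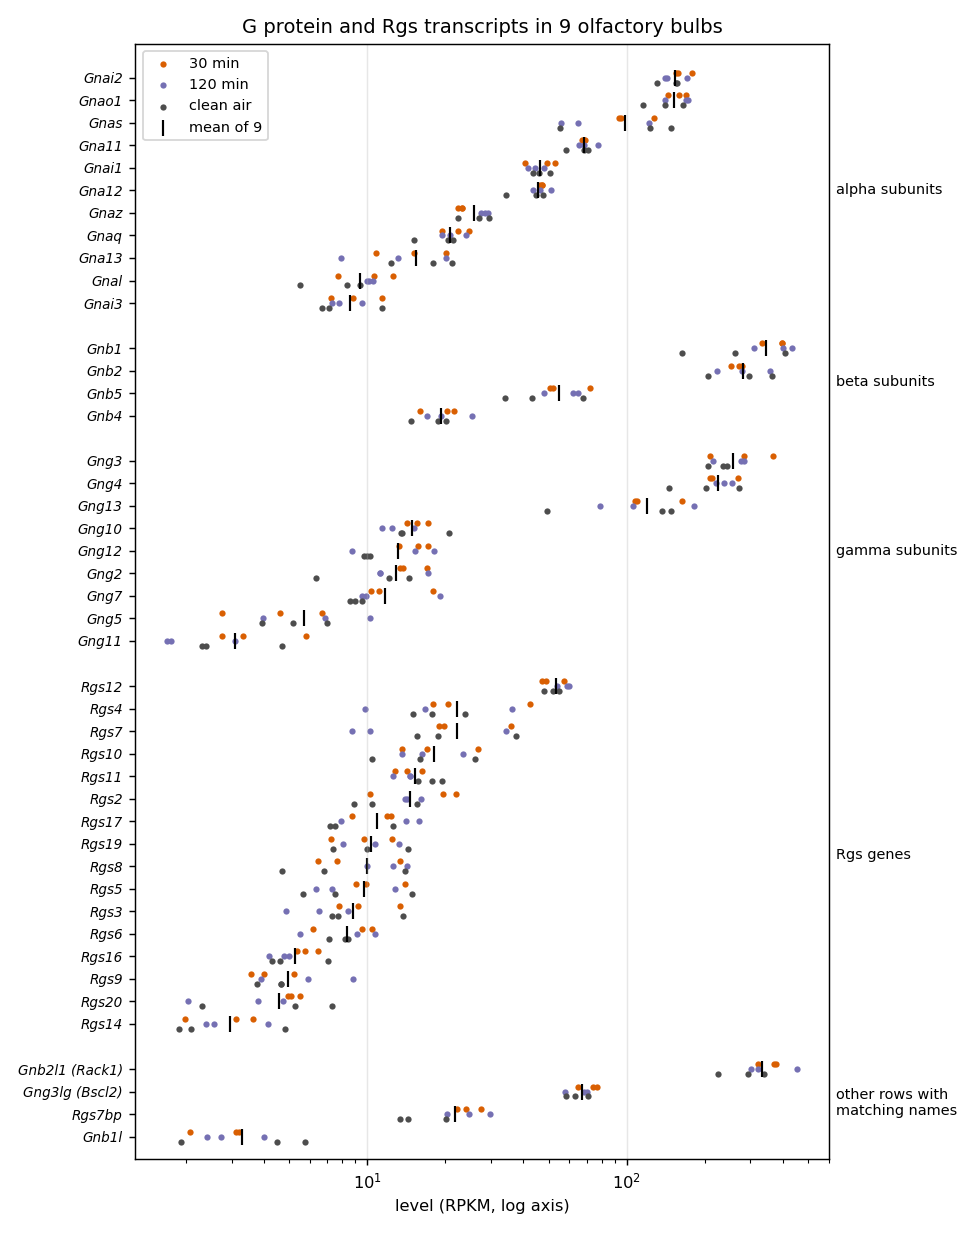
Level of each of the 44 transcripts in RPKM on a log axis, ordered by family and by mean; each dot is 1 mouse, coloured by group, and the black tick is the mean of 9. The means of Gnai2, Gnao1, Gnb1, Gnb2, Gng3, Gng4, Gng13 and Gnb2l1 lie above 100 RPKM, while of the Rgs genes only Rgs12 averages above 50 RPKM.

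Among the alpha subunits, Gnai2 and Gnao1 were level with each other at the top. Gnai2, an inhibitory subunit found in most cells, had 154, 179 and 158 RPKM in 30 min mice 1, 2 and 3, 143, 140.4 and 171 RPKM in 120 min mice and 154, 131 and 156 RPKM in clean air mice. Gnao1, the main alpha subunit of neurons, had 169.8, 144 and 159 RPKM in 30 min mice, 169, 140.0 and 172 RPKM in 120 min mice and 164, 116 and 141 RPKM in clean air mice. The first was above the second in 4 of 9 libraries. Gnas, the general stimulatory subunit, was below Gnao1 in 8 of 9 libraries, with means of 105 ± 19.4 RPKM at 30 min, 81.0 ± 36.1 RPKM at 120 min and 109 ± 48.0 RPKM in the clean air group (SD, n = 3 each). Single values were 128, 95.2 and 93.25 RPKM in 30 min mice, 122, 55.9 and 64.6 RPKM in 120 min mice and 122, 55.6 and 149 RPKM in clean air mice. The 3 lowest came from the 120 min and clean air groups, and the groups overlapped in each comparison.

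The remaining alpha subunits ran in steps from Gna11 to Gnai3. Gna11, the more abundant Gq/11 subunit, averaged 68.3 RPKM and was above Gnai1 (46.4 RPKM) in all 9 libraries. Gnai1 and Gna12 (45.3 RPKM), which belong to the Gi/o and G12/13 classes, could not be ordered, since the first was higher in 5 of 9 libraries. Gnaz (25.8 RPKM), a Gi/o subunit resistant to pertussis toxin, was above Gnaq (20.9 RPKM) in 8 libraries, and Gnaq above Gna13 (15.4 RPKM) in 8. Gnal (9.40 RPKM) and Gnai3 (8.57 RPKM) were the lowest, and Gnal was the higher one in 6 of 9 libraries. Gnai3 had 7.24, 11.35 and 8.83 RPKM in 30 min mice, 7.32, 9.5 and 7.76 RPKM in 120 min mice and 6.67, 11.35 and 7.12 RPKM in clean air mice, so the mouse numbered 2 was the highest in each group.

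Summed by class, Gi/o transcripts made up 60.0 ± 2.63% of all alpha subunit RPKM at 30 min, 61.9 ± 3.69% at 120 min and 59.0 ± 4.25% in clean air. Gs/olf transcripts made up 17.2 ± 2.38%, 14.1 ± 4.59% and 18.0 ± 5.08% in the same 3 groups, Gq/11 transcripts 13.5 ± 0.0408%, 14.5 ± 0.762% and 13.6 ± 1.35%, and G12/13 transcripts 9.28 ± 0.462%, 9.53 ± 0.208% and 9.38 ± 0.567% (SD, n = 3 each). Within groups the Gs/olf share spread further than the group means lay apart. The lowest and highest share of Gs/olf in single libraries were 11.4% in 120 min mouse 3 and 22.4% in clean air mouse 3.

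**Figure D2:**
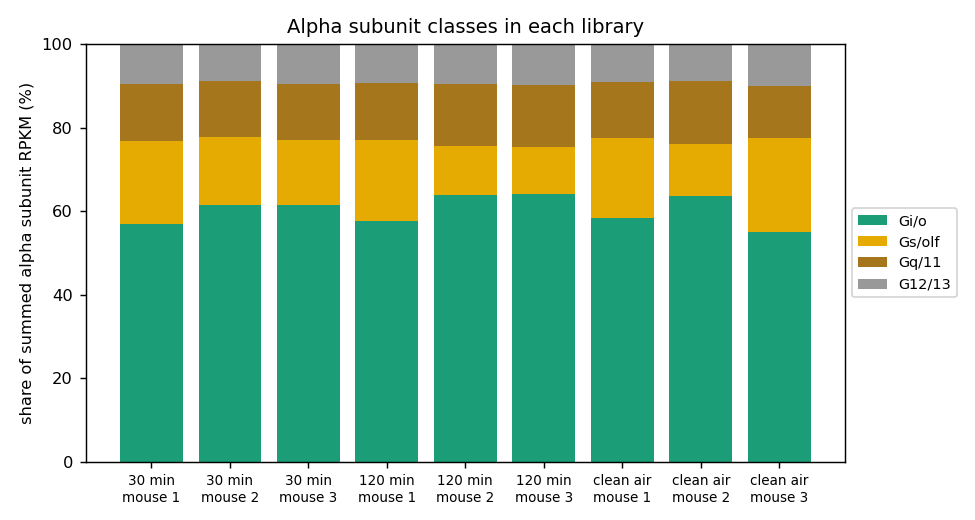
Share of the summed alpha subunit RPKM, in percent, taken by the Gi/o, Gs/olf, Gq/11 and G12/13 classes in each of the 9 libraries, stacked to 100. Gi/o transcripts take 55.1% to 64.0% in every library, and the Gs/olf share varies as much within each group as between groups.

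Gnal (ENSMUSG00000024524) had 10.6, 12.5 and 7.72 RPKM in 30 min mice 1, 2 and 3, 9.94, 10.5 and 10.1 RPKM in 120 min mice and 8.36, 9.37 and 5.5 RPKM in clean air mice. All 3 mice at 120 min were above all 3 in clean air, while the 30 min mice overlapped with clean air. On the log2(RPKM + 0.5) scale used for all differences here, Gnal differed from clean air by 0.39 ± 0.23 (SE) at 30 min, with a 95% interval of -0.11 to 0.89 and a limma adjusted p of 0.834. At 120 min the difference was 0.41 ± 0.23, with an interval of -0.10 to 0.91 and a limma adjusted p of 0.616. Neither passed the adjusted p limit of 0.05, and both were smaller when clean air mouse 3, the lowest of the 9, was left out: 0.18 at 30 min and 0.19 at 120 min. Both were larger without clean air mouse 2, the highest of its group: 0.54 at 30 min and 0.55 at 120 min.

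Within the pair Gnal and Gnas, Gnal took 8.97 ± 2.30% of the summed RPKM at 30 min, 12.3 ± 4.28% at 120 min and 8.13 ± 5.64% in clean air (SD, n = 3 each). In single libraries that share lay between 3.57% and 15.8%. Between its lowest and highest library Gnas differed 2.67-fold and Gnal 2.28-fold. Annotated exons of Gnal overlap those of Mppe1 on the opposite strand, a gene listed at a mean of 6.93 RPKM. The sources used here do not say whether reads were counted by strand, so reads within the overlap cannot be told apart. The extent of the overlap was not measured.

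The beta subunits held the 2 most abundant members of the set that are true subunits. Gnb1, the commonest beta subunit of brain, had 398, 333 and 395 RPKM in 30 min mice, 434, 311 and 400.3 RPKM in 120 min mice and 407, 262 and 164 RPKM in clean air mice. Clean air mice 2 and 3 were the 2 lowest of the 9 and clean air mouse 1 was the second highest. Gnb1 differed from clean air by 0.53 ± 0.29 at 30 min (interval -0.11 to 1.16, limma adjusted p = 0.832) and by 0.54 ± 0.29 at 120 min (interval -0.09 to 1.18, limma adjusted p = 0.592). Without clean air mouse 3 these differences were 0.20 and 0.21. Without clean air mouse 1, the highest of its group, they were 0.85 and 0.87.

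Gnb2, a beta subunit of wide distribution, had 271, 252 and 279 RPKM in 30 min mice, 279, 223 and 356 RPKM in 120 min mice and 296, 206 and 364 RPKM in clean air mice. It was below Gnb1 in 8 of 9 libraries, and clean air mouse 3 was the exception. Gnb1 accordingly took 52.0 ± 2.56% of the summed beta subunit RPKM at 30 min, 51.2 ± 4.14% at 120 min and 42.95 ± 12.9% in clean air (SD, n = 3 each), with 28.4% in clean air mouse 3. Gnb5, the partner of the Rgs proteins of the R7 class, stood 5.11-fold below Gnb2, with 50.5, 72.2 and 52.0 RPKM in 30 min mice, 48.2, 64.8 and 62.1 RPKM in 120 min mice and 43.0, 67.7 and 33.9 RPKM in clean air mice. Gnb4 was the lowest, with 15.9, 20.4 and 21.6 RPKM at 30 min, 19.3, 17.0 and 25.4 RPKM at 120 min and 20.1, 18.7 and 14.7 RPKM in clean air. Groups overlapped for all 4 beta subunits in each comparison.

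A trio of gamma subunits stood far above the other 6. Gng3, a neuronal gamma subunit, had 210.3, 366 and 284 RPKM in 30 min mice, 216, 282 and 276 RPKM in 120 min mice and 234, 244 and 206 RPKM in clean air mice. Gng4, also a gamma subunit of brain, had 214, 268 and 209.9 RPKM in 30 min mice, 222, 255 and 238 RPKM in 120 min mice and 203, 272 and 145 RPKM in clean air mice. Gng3 was above Gng4 in 6 of 9 libraries, so their order did not hold beyond the spread, and Gng4 was above Gng13 in all 9. Averaged over the 9 libraries Gng3, Gng4 and Gng13 took 38.9%, 34.01% and 17.7% of the summed gamma subunit RPKM. Exons of Gng3 overlap those of Bscl2 (67.3 RPKM) on the opposite strand, and reads within that overlap could likewise not be separated.

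Gng13 (ENSMUSG00000025739) had 109, 164 and 107 RPKM in 30 min mice, 79.2, 181 and 106 RPKM in 120 min mice and 148, 137 and 49.5 RPKM in clean air mice. The lowest of the 9 was clean air mouse 3 and the highest was 120 min mouse 2, 3.66-fold apart, and the groups overlapped throughout. The difference from clean air was 0.31 ± 0.41 at 30 min (interval -0.61 to 1.22, limma adjusted p = 0.901) and 0.19 ± 0.41 at 120 min (interval -0.72 to 1.11, limma adjusted p = 0.919). Its sign rested on single mice: without clean air mouse 3 the values were -0.20 and -0.31, and without 120 min mouse 2 the 120 min value was -0.13. Gng13, at a mean of 120.2 RPKM, was above Gnal, its partner in olfactory sensory neurons, in all 9 libraries.

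Transcripts listed as markers of olfactory sensory neurons were read in the same libraries. Omp, the marker protein of mature sensory neurons, averaged 97.2 RPKM, and Adcy3, the adenylyl cyclase activated by Golf, averaged 12.8 RPKM. Of the list of Golf transduction partners 7 of 9 genes were found and 4 reached 1 RPKM, and the cyclic nucleotide-gated channel subunits Cnga2 and Cnga4 were at 0.406 and 0.480 RPKM. The summed level of 6 sensory neuron markers was 138 to 146 RPKM in 30 min mice, 85.7 to 136 RPKM in 120 min mice and 106 to 145 RPKM in clean air mice. Most of each sum was Omp, since Cnga2, Rtp1 and Gng8 averaged only 0.406, 0.482 and 0.832 RPKM. In whole tissue, fewer cells of a type and less RNA per cell cannot be told apart, and the part of these neurons in the Gnal and Gng13 levels was not tested.

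The other gamma subunits averaged 3.08 to 14.8 RPKM, and those from Gng10 to Gng7 lay close together. Gng10 averaged 14.8 RPKM, Gng12 13.1 RPKM, Gng2 12.95 RPKM and Gng7 11.7 RPKM, and each was above the next in only 5 or 6 of 9 libraries. Gng7, the usual Golf partner of striatal neurons, had 17.9, 11.1 and 10.3 RPKM in 30 min mice, 9.54, 9.89 and 19.1 RPKM in 120 min mice and 9.55, 8.54 and 8.96 RPKM in clean air mice. Its 30 min mice were all above its clean air mice, while 120 min mouse 1 lay among the clean air values. Gng5 (5.69 RPKM) and Gng11 (3.08 RPKM) were the lowest, and Gng11 rested on as few as about 11 reads in 1 library. Processed copies of Gng2 and Gng5 are listed among mouse gene names, and how reads with several matches were counted is not given, so these levels are uncertain.

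Gng12 had the second smallest p of the set at 30 min. It had 13.3, 17.1 and 15.7 RPKM in 30 min mice, 8.72, 18.1 and 15.3 RPKM in 120 min mice and 9.67, 10.2 and 9.93 RPKM in clean air mice. All 3 of the 30 min mice were above all 3 of the clean air mice, and 120 min mouse 1 was the lowest of the 9. The 30 min difference was 0.60 ± 0.24 (interval 0.07 to 1.12), with a limma adjusted p of 0.818.

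Among the Rgs genes, Rgs12 was the most abundant and the steadiest. Rgs12, a large protein that also holds a domain binding inactive Gi alpha subunits, had 47.2, 48.7 and 57.6 RPKM in 30 min mice, 54.0, 58.8 and 59.7 RPKM in 120 min mice and 48.0, 52.2 and 55.0 RPKM in clean air mice. Its highest library was 1.26-fold above its lowest, and it exceeded the next gene, Rgs4, in all 9 libraries, by 2.41-fold in the mean. Rgs12 alone was 24.45% of the summed Rgs RPKM. By class, the R12 genes Rgs10, Rgs12 and Rgs14 took 33.9% of that sum, the small R4 proteins 31.6%, the R7 proteins that bind Gnb5 22.7% and the RZ proteins 11.7%.

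Rgs4 and Rgs7 followed at nearly the same mean with the widest spreads of the set. Rgs4, which acts on Gi/o and Gq subunits, had 42.3, 18.0 and 20.4 RPKM in 30 min mice, 36.04, 16.7 and 9.81 RPKM in 120 min mice and 23.8, 17.8 and 14.97 RPKM in clean air mice, so the mouse numbered 1 was the highest in every group. Rgs7, of the R7 class, had 18.8, 35.7 and 19.8 RPKM in 30 min mice, 8.76, 34.25 and 10.2 RPKM in 120 min mice and 18.7, 37.4 and 15.6 RPKM in clean air mice, so the mouse numbered 2 was the highest in every group. Rgs14, at the foot of the family, had 3.62, 3.13 and 1.99 RPKM at 30 min, 2.57, 2.39 and 4.15 RPKM at 120 min and 2.10, 1.88 and 4.80 RPKM in clean air. The groups overlapped in each comparison with clean air for all 3 genes.

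The other Rgs genes lay between Rgs7 and Rgs14 in a nearly unbroken run of levels. Of the R12 class, Rgs10, which is expressed in microglia as well as in neurons, averaged 18.1 RPKM. Of the R7 class, Rgs11 averaged 15.3 RPKM, Rgs6 8.36 RPKM and Rgs9 4.94 RPKM, so Rgs7 was the most abundant of the 4 that can pair with Gnb5. Of the R4 class, Rgs2 averaged 14.6 RPKM, Rgs8 9.95 RPKM, Rgs5 9.70 RPKM, Rgs3 8.77 RPKM and Rgs16 5.28 RPKM. Of the RZ class, Rgs17 averaged 10.9 RPKM, Rgs19 10.3 RPKM and Rgs20 4.55 RPKM. From Rgs17 down to Rgs6, each gene exceeded the next in 4 to 6 of 9 libraries, so their order did not hold beyond the spread. Rgs6 was above Rgs16, and Rgs20 above Rgs14, in 8 of 9 libraries.

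Of the 4 genes that match by name alone, Gnb2l1 was the most abundant, with 224 to 455 RPKM over the 9 libraries. The Bscl2 entry had 57.6 to 76.9 RPKM and Gnb1l, a protein with repeats like those of beta subunits, 1.91 to 5.73 RPKM. The groups of these 3 genes overlapped in every comparison, and only Rgs7bp, described with the comparisons, stood apart.

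Rgs2 (ENSMUSG00000026360) had 22.1, 19.6 and 10.2 RPKM in 30 min mice 1, 2 and 3, 16.05, 14.0 and 14.2 RPKM in 120 min mice and 10.4, 15.6 and 8.88 RPKM in clean air mice. The 2 highest of the 9 were 30 min mice, but 30 min mouse 3 lay below clean air mice 1 and 2, and the groups overlapped in each comparison with clean air. The means were 17.3 ± 6.25 RPKM at 30 min, 14.8 ± 1.12 RPKM at 120 min and 11.6 ± 3.503 RPKM in the clean air group (SD, n = 3 each). The difference from clean air was 0.52 ± 0.28 at 30 min (interval -0.10 to 1.15, limma adjusted p = 0.832) and 0.37 ± 0.28 at 120 min (interval -0.26 to 1.00, limma adjusted p = 0.734). Without clean air mouse 3, the lowest of the 9, the values were 0.36 at 30 min and 0.20 at 120 min. Without clean air mouse 2, the highest of its group, they were 0.75 and 0.59. A response of Rgs2 was therefore not detected with 3 mice a group, and the upper bound of its 30 min interval lies slightly above a doubling.

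The same mice did show the activity response in immediate-early genes. Fos had 171, 131 and 164 RPKM in 30 min mice, 20.2, 17.2 and 25.0 RPKM in 120 min mice and 4.73, 4.04 and 12.1 RPKM in clean air mice. In the panel of Fos, Egr1, Arc and Npas4, 4 of 4 rose at 30 min relative to clean air by limma's adjusted p, with a median difference of 3.41, and 4 of 4 fell at 120 min relative to 30 min. The summed panel was 883 RPKM in 30 min mouse 3, the highest of the 9, in which Rgs2 was low. In clean air mouse 3 the panel stood at 128 RPKM, level with the 120 min mice (119 to 129 RPKM) and above the other 2 clean air mice (46.6 and 54.6 RPKM), while its Rgs2 level was the lowest of all.

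**Figure D3:**
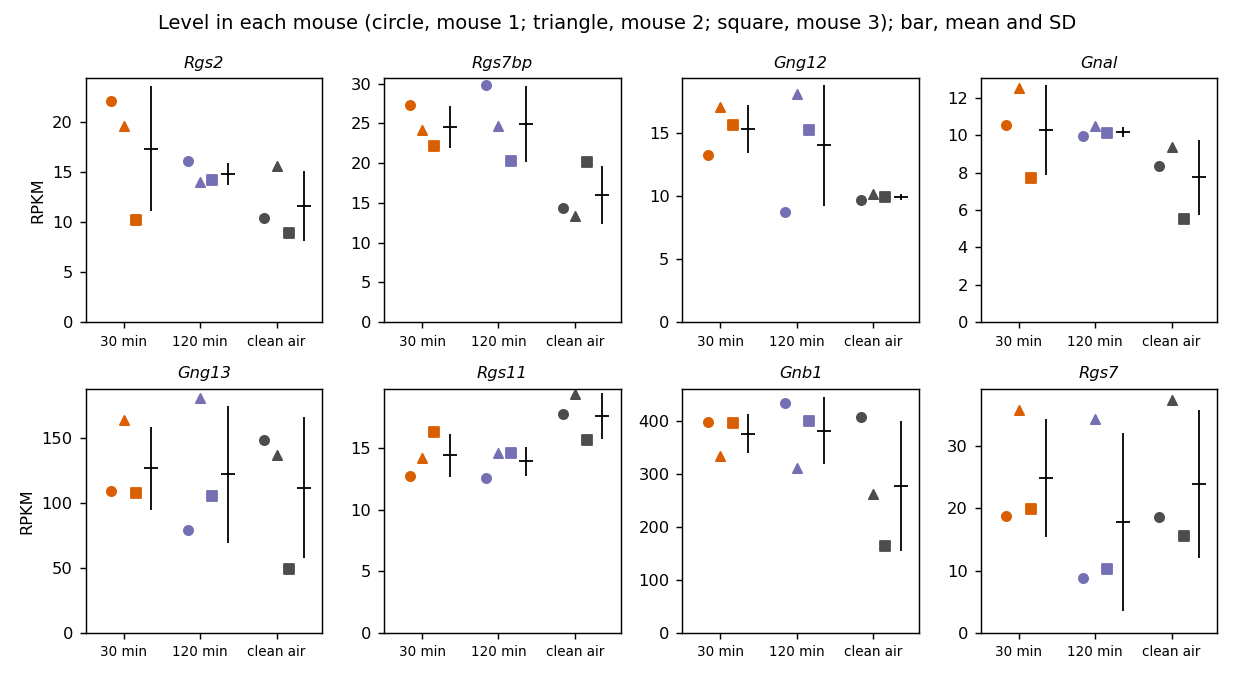
Level in RPKM of Rgs2, Rgs7bp, Gng12, Gnal, Gng13, Rgs11, Gnb1 and Rgs7 in every mouse, with vertical axes from 0; circles, triangles and squares are mice 1, 2 and 3 of each group, and the bar beside them is the mean with its SD (n = 3). Rgs7bp at 30 min (22.2 to 27.35 RPKM) lies above clean air (13.4 to 20.1 RPKM), whereas Rgs2 at 30 min (10.2 to 22.1 RPKM) overlaps with clean air (8.88 to 15.6 RPKM).

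No member passed the adjusted limit after odor exposure. At 30 min relative to clean air, limma called 0 of 44 members at an adjusted p under 0.05, against 0.141% of all 12780 genes tested (0.133% higher and 0.00782% lower). At an unadjusted p under 0.05 there were 2 members, Rgs7bp and Gng12 (4.55%), against 5.92% of all genes. In 3 members, Gng7, Gng12 and Rgs7bp (6.82%), all 30 min mice were above all clean air mice, which held for 7.29% of all genes, and in none were they all below, against 4.08%. The difference was above 0 in 34 of 44 members (77.3%) and in 61.8% of all genes, with a median of 0.16 over the members and 0.08 over all genes. Without clean air mouse 3 it was above 0 in 32 members (72.7%) and in 55.8% of all genes. Members' differences ran from -0.37 to 0.62, and for 31 of the 44 the 95% interval, which reached a median of 0.57 to either side, lay within -1 and 1, that is, within a doubling or a halving.

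At 120 min relative to clean air, limma again called 0 of 44 members, against 0.0861% of all genes (0.0704% higher and 0.0156% lower). At an unadjusted p under 0.05 there was 1 member, Rgs7bp (2.27%), against 9.57% of all genes. All 120 min mice were above all clean air mice in Gnal and Rgs7bp (4.55%, against 7.86% of all genes) and below them in Rgs11 (2.27%, against 5.27%). The difference was above 0 in 29 of 44 members (65.9%) and in 53.9% of all genes, and the medians were 0.11 and 0.03. Without clean air mouse 3 it was above 0 in 27 members (61.4%) and in 47.8% of all genes. The range over members was -0.59 to 0.63, and 29 intervals lay within -1 and 1. Shares this near to those of all genes were not read as a result about the members. Both comparisons share the clean air mice, and their values are not independent of each other.

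**Figure D4:**
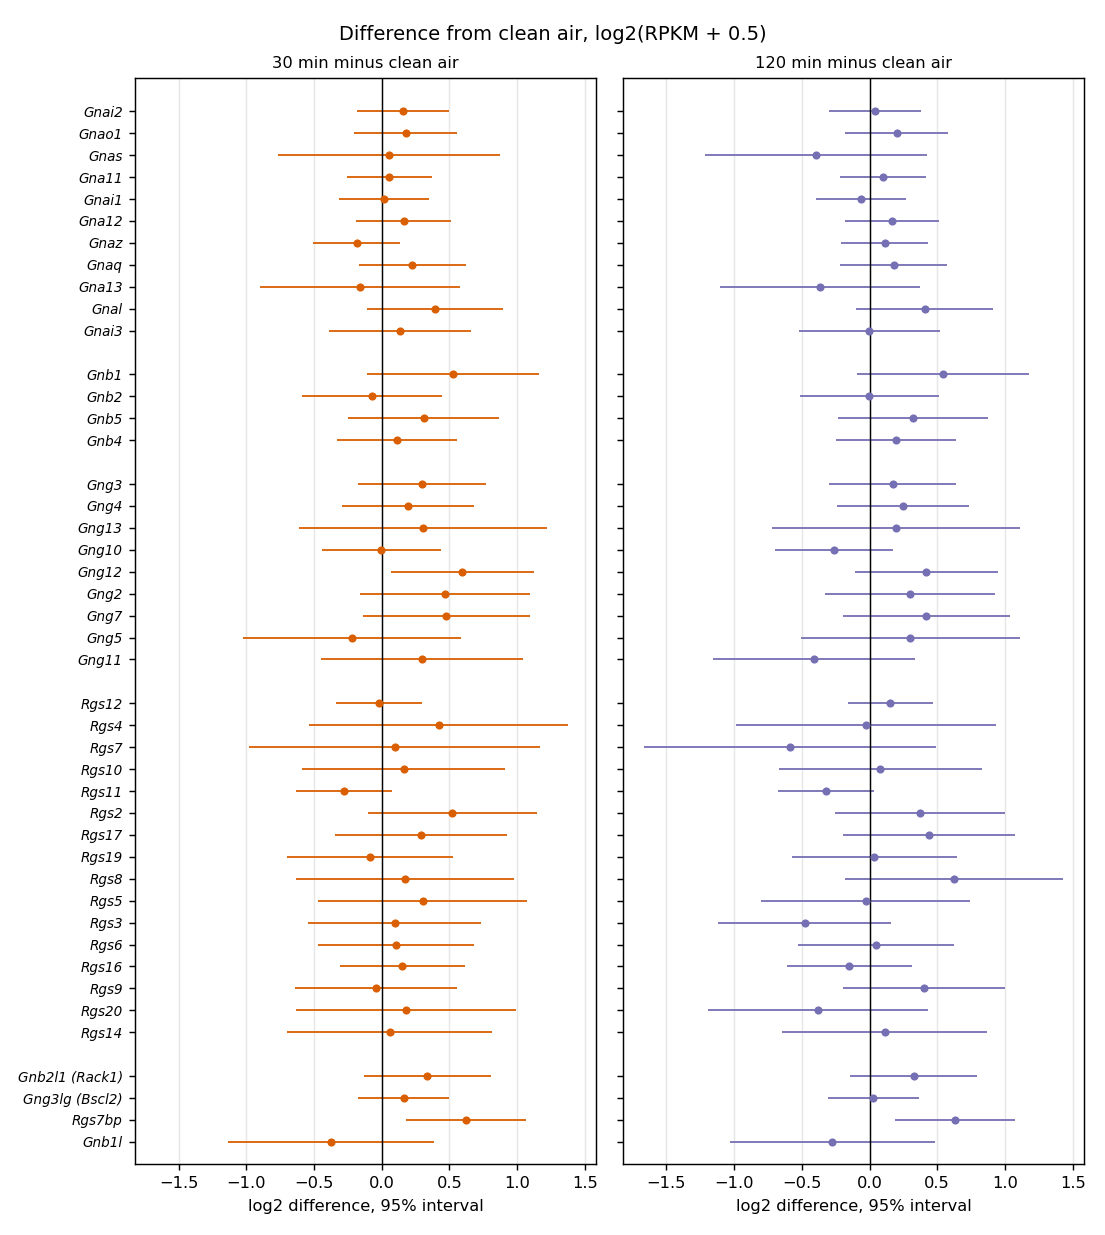
Difference from clean air of each of the 44 transcripts on the log2(RPKM + 0.5) scale with its 95% interval, for 30 min on the left and 120 min on the right, 3 mice a group. Most intervals cross 0; those of Rgs7bp lie above 0 on both sides (0.18 to 1.06 at 30 min and 0.19 to 1.07 at 120 min), and none of the 44 passed the adjusted limit.

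Rgs7bp (ENSMUSG00000021719) stood at the head of both lists by unadjusted p. Its protein binds Rgs proteins of the R7 class together with Gnb5 and anchors them at the membrane. It had 27.35, 24.1 and 22.2 RPKM in 30 min mice, 29.8, 24.7 and 20.3 RPKM in 120 min mice and 14.4, 13.4 and 20.1 RPKM in clean air mice. Every exposed mouse was above every clean air mouse, although 120 min mouse 3 and clean air mouse 3 lay side by side. The difference from clean air was 0.62 ± 0.20 at 30 min (interval 0.18 to 1.06, limma adjusted p = 0.749) and 0.63 ± 0.20 at 120 min (interval 0.19 to 1.07, limma adjusted p = 0.361). Its means were 24.6 ± 2.61 RPKM at 30 min, 24.9 ± 4.74 RPKM at 120 min and 16.0 ± 3.65 RPKM in the clean air group (SD, n = 3 each).

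None of the 4 R7 genes was higher in all exposed mice than in all clean air mice. Rgs11, an R7 protein, had 12.8, 14.2 and 16.3 RPKM in 30 min mice, 12.6, 14.6 and 14.6 RPKM in 120 min mice and 17.75, 19.4 and 15.7 RPKM in clean air mice. The 120 min mice were all below the clean air mice, with a difference of -0.33 ± 0.16 (interval -0.68 to 0.03, limma adjusted p = 0.559). Exons of Rgs11 overlap those of Arhgdig on the opposite strand, which is listed at a mean of 44.1 RPKM, so the Rgs11 values may hold reads of both. In all, 9 of the 44 members overlap an opposite-strand gene listed at 1 RPKM or more, among them Gng13 (Chtf18, 5.40 RPKM) and Rgs20 (Atp6v1h, 39.0 RPKM). Rgs7 and Rgs9 overlapped between groups in every comparison.

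Between the exposed groups, 120 min relative to 30 min, limma called 0 of 44 members against 0.0782% of all genes, and no member had an unadjusted p under 0.05, against 3.36% of all genes. The smallest p was that of Gng11, with 1.69, 3.10 and 1.75 RPKM in 120 min mice and 3.31, 5.78 and 2.75 RPKM in 30 min mice, a difference of -0.71 ± 0.34 (limma adjusted p = 0.999). Its clean air mice, at 2.38, 4.69 and 2.30 RPKM, lay across both. Gnaz had 28.4, 29.1 and 27.4 RPKM in 120 min mice and 23.2, 23.1 and 22.4 RPKM in 30 min mice. Both groups were tight and did not overlap, and the difference was 0.30 ± 0.15 (interval -0.02 to 0.62, limma adjusted p = 0.999). Its clean air mice, at 26.9, 22.5 and 29.5 RPKM, overlapped with both.

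Rgs3, of the R4 class, had 8.42, 6.51 and 4.88 RPKM in 120 min mice and 13.4, 9.24 and 7.77 RPKM in 30 min mice, a difference of -0.58 ± 0.29 (limma adjusted p = 0.999), and 13.7, 7.28 and 7.74 RPKM in clean air mice. Rgs9, of the R7 class and best known from striatum and retina, had 8.84, 5.91 and 3.89 RPKM in 120 min mice and 3.56, 5.2 and 4.0 RPKM in 30 min mice, a difference of 0.45 ± 0.27 (limma adjusted p = 0.999), and 4.65, 3.77 and 4.66 RPKM in clean air mice. Both genes overlapped between these groups. Rgs16 (4.19 to 5.01 RPKM at 120 min and 5.37 to 6.46 RPKM at 30 min) and Rgs20 (2.03 to 4.75 RPKM at 120 min and 4.93 to 5.51 RPKM at 30 min) did not overlap, with the 120 min mice lower. That was 2 of 44 members (4.55%) lower and 1, Gnaz, higher (2.27%), against 5.66% and 4.99% of all genes. The difference was above 0 in 19 of 44 members (43.2%) and in 43.7% of all genes.

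**Figure D5:**
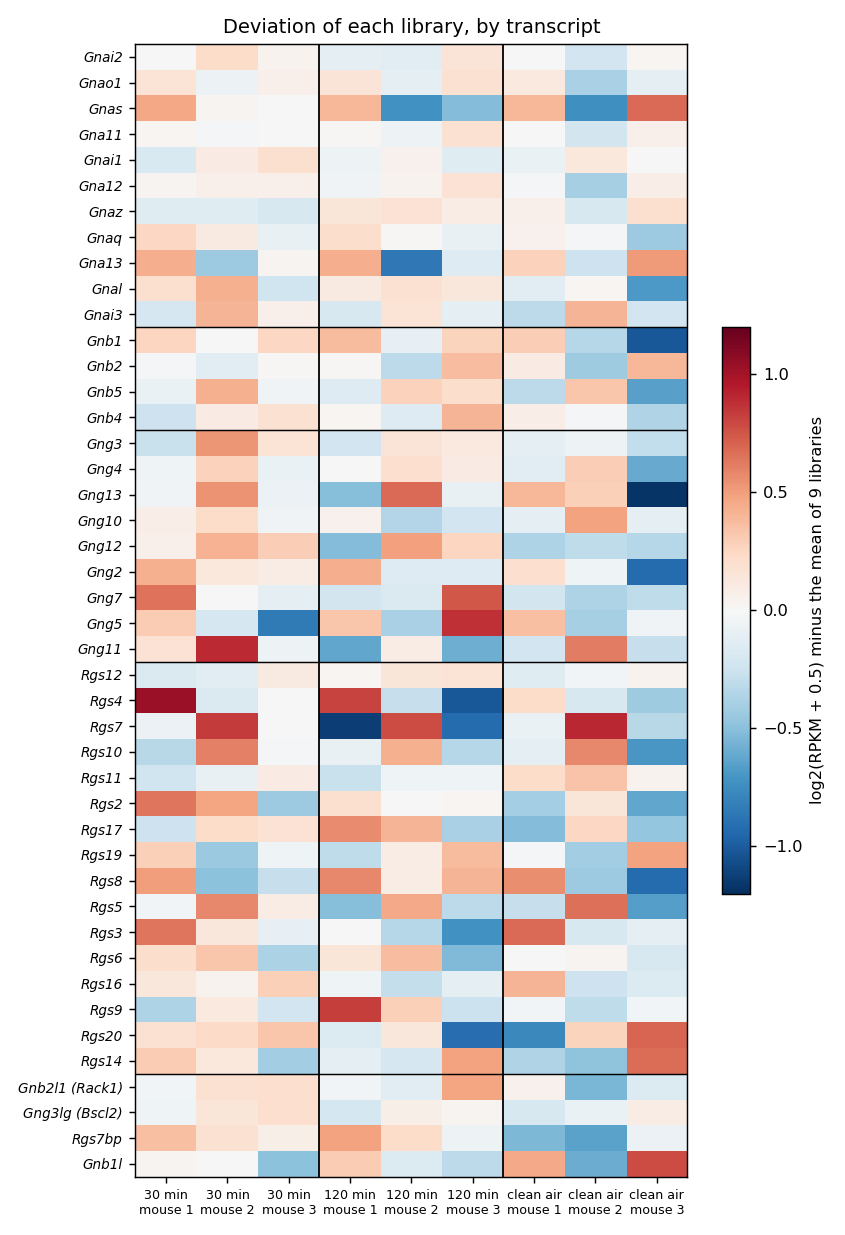
Deviation of each library from the mean of 9 on the log2(RPKM + 0.5) scale (colour, -1.2 to 1.2), with the 44 transcripts down the page and the 9 libraries across, grouped as 30 min, 120 min and clean air. Values run from -1.18 to 1.04, and the clean air mouse 3 column holds low values of Gnb1, Gng13, Gng2 and Rgs8.

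The enzymes, channels and regulators that work with G proteins gave no call either. From the list of Golf partners, 0 of the 4 genes tested (Adcy3, Omp, Ric8b and Stoml3) were called. Of all genes, 0.141% were called at 30 min and 0.0861% at 120 min relative to clean air, and 0.0782% at 120 min relative to 30 min. At such shares, 0 calls in lists this short were not read as a result about them. Of 8 adenylyl cyclases tested, led by Adcy2 (36.6 RPKM) and Adcy5 (27.4 RPKM), limma called 0 in any comparison. Likewise 0 were called of 3 phospholipase C beta genes, led by Plcb1 (36.03 RPKM) and Plcb4 (12.996 RPKM), and of 3 potassium channels gated by beta-gamma pairs, led by Kcnj3 (59.4 RPKM) and Kcnj9 (17.7 RPKM). None was called of 7 receptor kinases and arrestins, led by Arrb1 (82.4 RPKM) and Adrbk1 (74.5 RPKM). None was called either of 11 other regulators, led by Gpsm1 (31.6 RPKM) and Rgs7bp, which is also a member of the set. The median differences from clean air at 30 min were 0.17, 0.25, -0.13, -0.01 and 0.16 for these 5 lists in the order given, beside 0.08 over all genes.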

How the data were processed

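Bowtie served for alignment to mm9, per the submitters' processing notes. Not given in the sources used here are the Bowtie version, annotation, counting rule and strandedness. The authors deposited RPKM for 27497 genes in 9 libraries, and the values were used without further scaling. Depth was recovered from the spacing of the values of annotated RNAs under 200 nt: with lengths shortened by 34 nt, 86.2% to 93.0% of the multiples were whole within 0.05. Read numbers rest on this depth and on GENCODE M21 exon lengths, while the lengths behind the deposited values are not given, so they are approximate. The floor of 3 counts allows for counting error alone.

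The 12780 genes averaging 1 RPKM or more were fitted in limma 3.58.1 (R 4.3.3) as log2(RPKM + 0.5), in 1 fit to all 9 libraries with a mean-variance trend and 6 residual degrees of freedom. A fold on this scale understates the change of low genes. Tests were two-sided. Calls needed an adjusted p under 0.05, by the Benjamini-Hochberg method over all genes tested. The fit was tested on simulated data. Mice named by number have the number of the sample title. Exon overlaps came from GENCODE M21 by gene identifier, and promoter windows from RefSeq by symbol.

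Values in every mouse are given for Gnal, Gng13 and Rgs2, for the 3 most abundant members and the least abundant member of each family, and for the 4 members with the smallest p in each comparison. Gng7, Rgs16 and Rgs20 were named after their values were seen, because their groups did not overlap. Pathway lists are given by counts with their 2 most abundant genes. The members, lists and tests were chosen with earlier results of these data known. Alternatives were other pseudocounts (0.1 and 1), filters, library scalings, eBayes without a trend, only the 2 groups compared, mouse number as a block, and leaving out each mouse.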

Additional observations from a re-analysis of the deposited data

How the results depend on the processing

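Limma called 0 members in each comparison under all 18 alternatives, of 44 tested in each but the filter at 5 RPKM, which left 39. Repeats of 16 of the members' differences given above kept their sign and their side of the limit 283 times. The 3 exceptions were those of Gng13: -0.20 at 30 min and -0.31 at 120 min without clean air mouse 3, and -0.13 at 120 min without 120 min mouse 2. Part of this agreement in sign was fixed in advance. The filters, the block, eBayes without a trend and the fit to only the 2 groups compared leave a difference unchanged. So does leaving out a mouse of the group not compared. Leaving out 1 mouse moved Gng13 between -0.20 and 0.59 at 30 min and between -0.31 and 0.48 at 120 min. Over the alternatives Rgs2 lay between 0.32 and 0.85 at 30 min (limma adjusted p 0.453 to 1) and between 0.20 and 0.59 at 120 min (0.47 to 0.895), Rgs7bp between 0.51 and 0.80 at 30 min (0.407 to 0.999) and between 0.50 and 0.81 at 120 min (0.22 to 0.703).

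Over all genes, 11 were called at 120 min relative to clean air, 7 with a filter at 5 RPKM and 2 with only the 2 groups compared. Leaving out 1 mouse gave 0 to 11: 0 when 120 min mouse 3 or clean air mouse 2 was left out (855 and 1092 at an unadjusted p under 0.05), 3 without 120 min mouse 1 or 2 and 6 without clean air mouse 1. The background of that comparison therefore rests on few mice. The filter at 5 RPKM gave no value for Gng11 and Rgs9.

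With mouse number as a block, 0 members were called at 30 min and at 120 min relative to clean air and at 120 min relative to 30 min, and 22, 11 and 10 of all genes were. At an unadjusted p under 0.05 there were 5, 6 and 3 members (11.4%, 13.6% and 6.82%), against 10.9%, 14.9% and 6.68% of all genes. Deviations of same-numbered libraries correlated across genes at 0.081 to 0.444, with 7 of 9 pairs over 0.1, and those of other pairs at -0.38 to 0.0865. Deviations from a group mean sum to 0, so a positive correlation with a library pushes those with the rest of its group down. The contrast with other pairs is therefore partly arithmetic. Each of the 9 libraries correlated best with its own number, but 120 min mouse 3 only narrowly (0.0897 with clean air mouse 3, 0.0865 with clean air mouse 1). The number is that of the sample titles, other label codes number these libraries differently, and no label says what a number shares, so this is a hint from the data and not the design. Genes are not independent replicates. With 3 mice a group, the 95% interval of the median member reached 0.57 to either side on the log2 scale. The counts without clean air mouse 3 were chosen after seeing the data.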

Other observations

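Several members had the same mouse number at the top or the bottom of every group. The number is that of the sample titles; the codes in the sample descriptions and the table number the mice after the first differently, so mice titled 2 and 3 do not carry the same code in clean air as in the exposed groups. The 3 libraries of the mice numbered 2 were above the other 6 for Rgs7, Rgs5, Rgs10, Gnb5, Gnai3 and Gng4, which are 6 of 44 members (13.6%, against 7.64% of all genes tested). They were below the other 6 for Gnb2, Gna11 and Gna13 (6.82%, against 5.34%). The 3 libraries numbered 1 were above the rest for Rgs4, Rgs8 and Gng2 (6.82%, against 4.09%), and the 3 numbered 3 were below the rest for Gnaq and Rgs6 (4.55%, against 2.46%). In the other directions there were 0 members: those numbered 1 below the rest (against 2.29% of all genes) and those numbered 3 above (against 1.61%). The median member had 46.1% of its sum of squares on the log2 scale between mouse numbers and 24.2% between exposure groups, against 35.4% and 22.6% for the median gene. Any grouping of the libraries takes a share of this sum even without an effect, so 24.2% is not the part due to exposure. For Rgs7 the share between mouse numbers was 72.8%, and for Rgs7bp it was 4.48%, with 67.6% between exposure groups. No label says what mice of the same number share, and these shares carry no test. Library depth went with the number in part. In 30 min, 120 min and clean air order it was 8.79, 9.83 and 10.5 M counts for mice numbered 1. For mice numbered 2 it was 28.7, 24.1 and 22.1 M, and for mice numbered 3 it was 17.4, 7.12 and 29.8 M. The part of depth in these patterns was not tested.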
